A study of Mus musculus with 12 samples.

Results

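The genes described here are 10 markers of vascular endothelium, *Pecam1*, *Cdh5*, *Cldn5*, *Tek*, *Tie1*, *Flt1*, *Kdr*, *Eng*, *Vwf* and *Thbd*, measured by RNA-seq in the mouse lens at P7 (an age of 7 days). They were taken by gene symbol from the deposited count table, and all 10 were among its 55487 gene identifiers. Lenses came from 4 genotypes with 3 libraries each. Wild-type mice carried the unedited gene, *Trpm3*-I/M mice were heterozygous and *Trpm3*-M/M mice homozygous for an isoleucine-to-methionine substitution in the TRPM3 cation channel made by CRISPR/Cas-9 editing, and *Trpm3*-KO mice carried a *Trpm3* gene targeted by homologous recombination. These genotypes are called I/M, M/M and KO here, and all strains were kept on the B6J background. Each library pooled 4 lenses of male and 4 of female mice by its description, so that no value belongs to a single animal, and p-values measure the spread between such pools.

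Endothelial cells line blood vessels. They hold together through adherens and tight junctions, respond to VEGF and angiopoietin ligands through receptor tyrosine kinases, and keep the vessel surface from clotting. The mature lens has no vessels, while the fetal lens is enclosed by a capillary net, the tunica vasculosa lentis, which is fed by the hyaloid artery and regresses after birth in the mouse.

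Library depth ran from 56162169 to 82090198 counts on genes and was higher in I/M (68589045 to 82090198) and M/M libraries (65454127 to 73875040) than in wild-type libraries (56162169 to 57480971). Levels are given as CPM, the count scaled to the depth of its library with TMM factors. *Trpm3* itself was at 251 to 287 CPM in wild-type, 90.3 to 100 in KO, 372 to 415 in I/M and 462 to 480 in M/M libraries. In I/M replicate 3 the female-specific transcript *Xist* was at 0.0724 CPM, against 46 to 306 in the other libraries, and Y-linked *Ddx3y* was at 27.3, which leaves its description as a mixed pool in doubt. The lens was the main tissue in all libraries. The 9 lens fiber markers summed to 217000 to 239000 CPM in wild-type and 143000 to 151000 in M/M libraries.

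Endothelial markers were scarce in wild-type and KO lenses and, in sum, higher in mutant lenses. The summed level of the 10 genes was 7.46 to 10.2 CPM in wild-type, 7.95 to 8.56 in KO, 54.3 to 65.2 in I/M and 115 to 119 in M/M libraries. Of the summed counts, *Tek* gave on average 65.7% in wild-type libraries. In I/M libraries *Thbd* gave 55.3% and *Tek* 20.6%. Changes were tested with edgeR's quasi-likelihood test on 15718 genes with a mean count of at least 10, and a gene was called at a fold change of at least 2 and a Benjamini-Hochberg adjusted p of at most 0.05. In M/M lenses all 10 genes were called higher than in wild-type, where 11.3% of all genes tested were called higher. Their median log2 fold change was 5.40, against -0.01 over all genes tested, and no M/M library overlapped a wild-type library for any of the 10, against 30.4% of all genes higher without overlap. Called lower in M/M were 4.45% of all genes and 0 of the 10. In I/M lenses 9 of the 10 were called higher, against 4.39% of all genes, and their median change was 3.61 on the log2 scale. Called lower were 0 (1.9% of all genes). The same 9 had no overlap with wild-type, as had 20.3% of all genes. In KO lenses 0 of 10 were called, against 0.375% of genes called higher and 0.573% called lower, with a median of 0.37. The 3 comparisons share the wild-type libraries. Over the 3 wild-type libraries *Tie1* and *Flt1* held 9 counts each, *Cldn5* 18 and *Kdr* 19. These genes reached the mean count of 10 only through the mutant libraries. The 10 genes were chosen with earlier results of these data known, so the counts of called genes are descriptive. In bulk RNA, more (or fewer) endothelial cells and more (or less) RNA per cell cannot be told apart. Bulk RNA also does not show which cells held the transcripts.

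**Figure D1:**
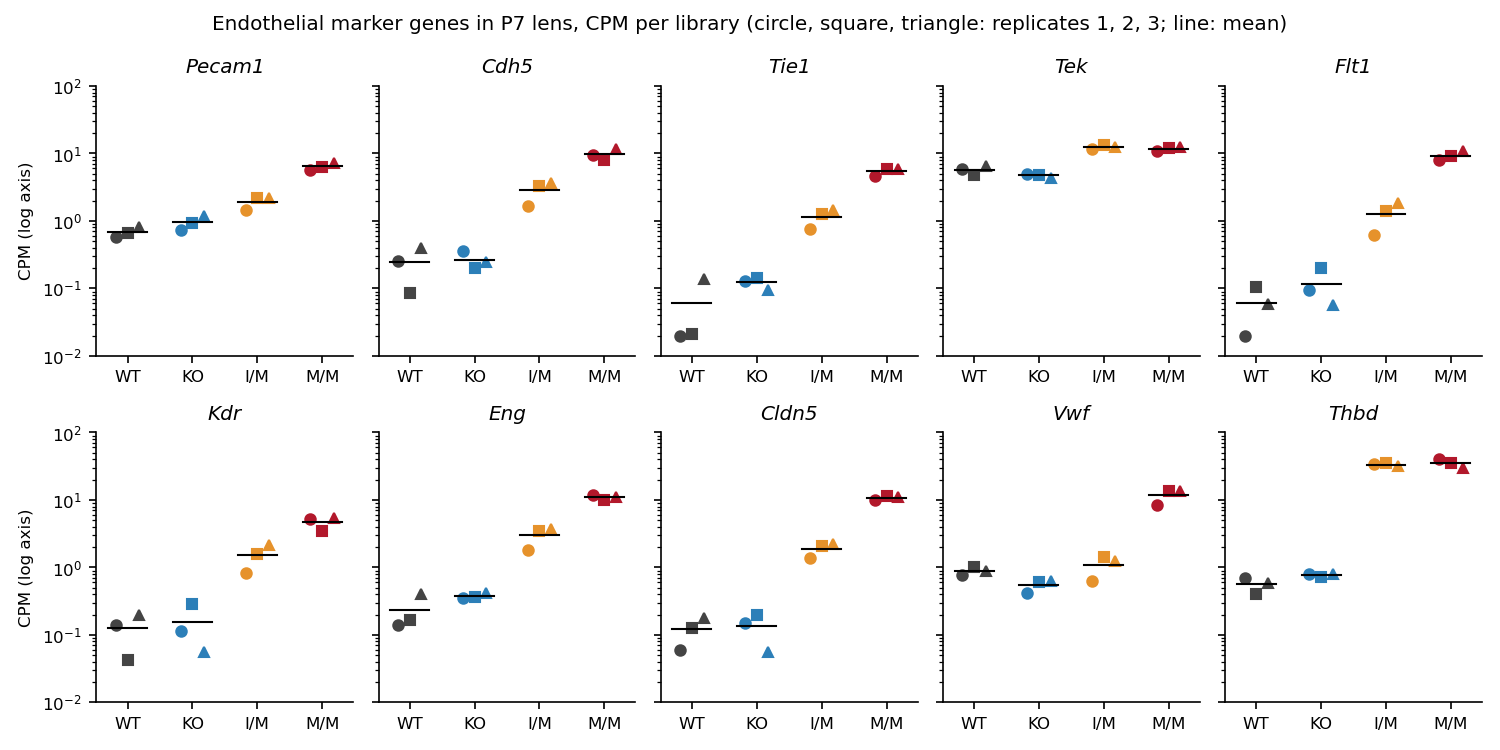
CPM of each of the 10 genes (log axis) in the 12 libraries, by genotype. Symbols are replicates 1, 2 and 3, and lines are means of 3. All M/M libraries lie above all wild-type libraries in each panel, *Thbd* is as high in I/M as in M/M, and *Vwf* overlaps wild-type in I/M.

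Among the junction and adhesion genes, *Pecam1* (chr11:106654217-106750628, GRCm38) encodes CD31, an adhesion molecule of endothelial cells that platelets and leukocytes also carry. It was at 0.572, 0.653 and 0.818 CPM in wild-type, 0.732, 0.945 and 1.19 in KO, 1.44, 2.17 and 2.20 in I/M, and 5.69, 6.32 and 7.25 in M/M libraries (replicates 1, 2 and 3, as below). Both mutant genotypes were above wild-type without overlap, and M/M was above I/M. Its log2 fold change was 3.23 (SE 0.20, adjusted p = 8.52e-09) in M/M and 1.51 (SE 0.22, adjusted p = 0.000152) in I/M. *Cdh5* (chr8:104101625-104144511) encodes VE-cadherin, the cadherin of endothelial adherens junctions. Its level was 0.257, 0.0843 and 0.399 CPM in wild-type, 0.357, 0.2 and 0.245 in KO, 1.69, 3.33 and 3.65 in I/M, and 9.49, 8.01 and 11.8 in M/M libraries. Wild-type and KO libraries overlapped, and the lowest mutant library was above all of them. It rose by 5.28 (SE 0.36, adjusted p = 1.92e-08) in M/M and by 3.53 (SE 0.39, adjusted p = 1.26e-05) in I/M on the log2 scale. *Cldn5* (chr16:18776847-18778262), a single-exon gene for the tight junction protein claudin-5, was at 0.0592, 0.126 and 0.18 CPM in wild-type, 0.15, 0.2 and 0.0566 in KO, 1.38, 2.09 and 2.23 in I/M, and 10, 11.4 and 11.1 in M/M libraries. The M/M libraries lay close together and far above the rest. The log2 fold change was 6.46 (SE 0.27, adjusted p = 1.12e-10) in M/M, or 88-fold, and 3.95 (SE 0.32, adjusted p = 5.45e-07) in I/M.

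*Tek* (chr4:94739289-94874976), the angiopoietin receptor Tie2, was measured in every wild-type library with at least 229 counts. It was at 5.84, 4.83 and 6.52 CPM in wild-type, 4.90, 4.87 and 4.40 in KO, 11.5, 13.4 and 12.6 in I/M, and 10.8, 11.9 and 12.3 in M/M libraries. Libraries of both mutant genotypes overlapped each other and lay above wild-type. *Tek* rose by 1.03 (SE 0.10, adjusted p = 5.17e-07) in M/M and by 1.13 (SE 0.10, adjusted p = 9.62e-07) in I/M on the log2 scale. This was the lowest rise of the 10 genes in M/M, and it fell under the 2-fold threshold without wild-type replicate 2 (0.92) and without M/M replicate 3 (0.99). *Tie1* (chr4:118471191-118490061), an orphan receptor related to *Tek*, was at 0.0197, 0.0211 and 0.14 CPM in wild-type, 0.131, 0.145 and 0.0944 in KO, 0.759, 1.28 and 1.45 in I/M, and 4.66, 5.85 and 5.82 in M/M libraries. The wild-type libraries held 1, 1 and 7 counts, so that replicate 3 alone set most of the wild-type level. The log2 fold change of *Tie1* was 6.44 (SE 0.37, adjusted p = 2.95e-09) in M/M and 4.22 (SE 0.44, adjusted p = 6.63e-06) in I/M. Without wild-type replicate 3 the fitted values were 7.93 and 5.71, which then rest on 1 count in each remaining wild-type library.

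*Flt1* (chr5:147561604-147726011) and *Kdr* (chr5:75932827-75978458) encode the VEGF receptors VEGFR1, a high-affinity decoy, and VEGFR2, the main signaling receptor. *Flt1* was at 0.0197, 0.105 and 0.0598 CPM in wild-type, 0.0939, 0.2 and 0.0566 in KO, 0.61, 1.40 and 1.83 in I/M, and 8.03, 9.10 and 10.7 in M/M libraries. Its 3 wild-type libraries held 1, 5 and 3 counts. The 3 genotypes wild-type, I/M and M/M formed steps without overlap. *Flt1* had the highest log2 fold change of the 10 genes in M/M, 7.21 (SE 0.44, adjusted p = 7.13e-09), and 4.35 (SE 0.57, adjusted p = 5.72e-05) in I/M. These values were 7.80 and 4.95 without wild-type replicate 2. *Kdr* was at 0.138, 0.0421 and 0.199 CPM in wild-type, 0.113, 0.291 and 0.0566 in KO, 0.84, 1.61 and 2.16 in I/M, and 5.17, 3.47 and 5.48 in M/M libraries. It followed the same steps without overlap. Its rise was 5.18 (SE 0.46, adjusted p = 2.85e-07) in M/M and 3.56 (SE 0.51, adjusted p = 0.000133) in I/M. *Eng* (chr2:32646595-32682669) encodes endoglin, a co-receptor of the TGF-beta family that assists BMP9 signaling through ALK1. It was at 0.138, 0.169 and 0.399 CPM in wild-type, 0.357, 0.363 and 0.415 in KO, 1.83, 3.42 and 3.72 in I/M, and 11.8, 9.83 and 11 in M/M libraries. Wild-type replicate 3 was the highest of its group and lay among the KO libraries. The log2 fold change was 5.51 (SE 0.30, adjusted p = 2.13e-09) in M/M and 3.65 (SE 0.34, adjusted p = 1.85e-06) in I/M, and 6.13 and 4.27 without wild-type replicate 3. *Eng* shares 61 exon bases (1.51% of its exons) with *Fpgs* on the other strand, and the library kit, as described, does not mark strand.

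The genes of hemostasis parted between the mutant genotypes. *Vwf* (chr6:125546774-125686679) encodes von Willebrand factor, the platelet-tethering glycoprotein that endothelial cells and megakaryocytes store. It was at 0.77, 1.03 and 0.898 CPM in wild-type, 0.413, 0.618 and 0.623 in KO, 0.637, 1.44 and 1.23 in I/M, and 8.34, 13.6 and 13.6 in M/M libraries. The I/M and wild-type libraries overlapped, and the M/M libraries stood far above both. *Vwf* rose by 3.72 (SE 0.26, adjusted p = 2.53e-08) in M/M, while its log2 fold change in I/M was 0.30 (SE 0.31, adjusted p = 0.533) with a 95% interval from -0.37 to 0.97. *Thbd* (chr2:148404466-148408188), a single-exon gene for thrombomodulin, which turns thrombin toward protein C activation, was at 0.691, 0.4 and 0.598 CPM in wild-type, 0.807, 0.727 and 0.812 in KO, 33.6, 35.1 and 31.4 in I/M, and 40.7, 35.1 and 30.1 in M/M libraries. The 6 mutant libraries overlapped by genotype and lay above every other library. *Thbd* rose by 5.96 (SE 0.15, adjusted p = 1.29e-12) in M/M and by 5.88 (SE 0.15, adjusted p = 6.65e-12) in I/M, 62.1-fold and 58.8-fold.

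**Figure D2:**
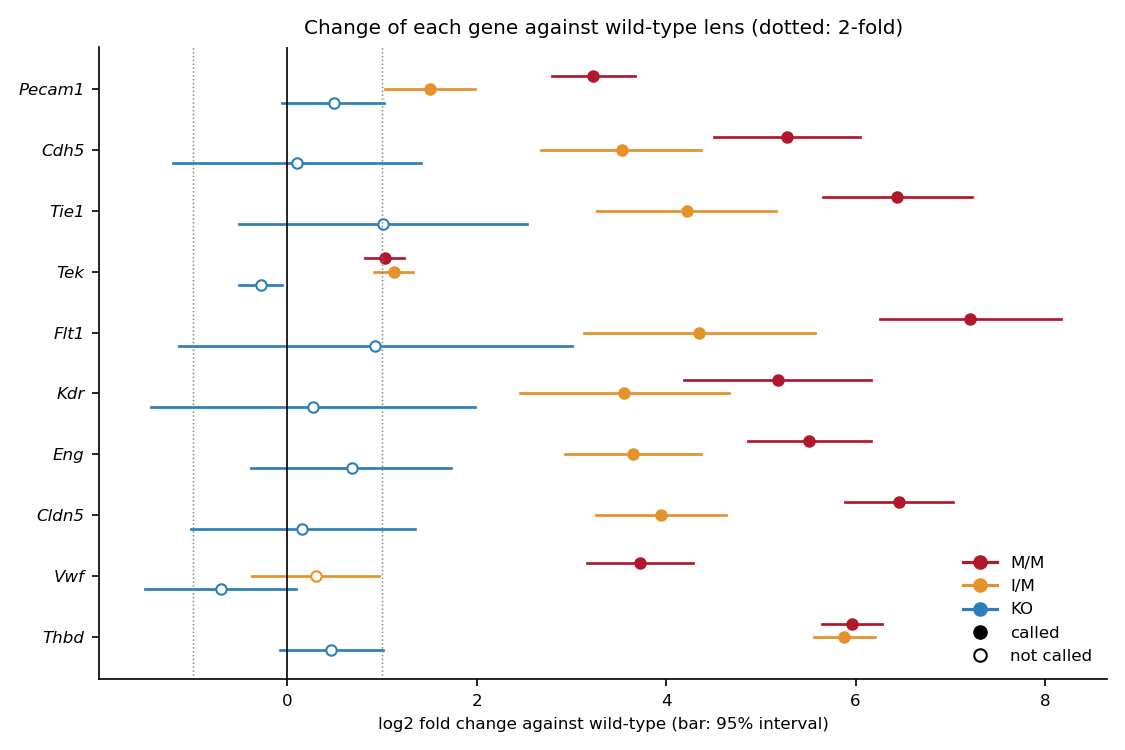
Log2 fold change of each gene against wild-type in M/M, I/M and KO lenses, with 95% intervals as bars. Filled points were called, open points were not, and dotted lines mark a 2-fold change. All M/M points are filled, *Vwf* is the one open I/M point, and all KO points are open.

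Direct comparison of M/M with I/M lenses asked whether the second mutant allele went with higher levels. It called 8 of the 10 genes higher in M/M, against 7.9% of all genes tested, and 0 lower (2.07% of all genes), and the median difference was 1.81 on the log2 scale against 0.00 over all genes. The same 8 genes had no overlap between the libraries, against 28.3% of all genes higher without overlap. *Vwf* had the highest difference, 3.42 (SE 0.24, adjusted p = 7.31e-08), followed by *Flt1* at 2.86 (SE 0.26, adjusted p = 8.45e-07), *Cldn5* at 2.51 (SE 0.16, adjusted p = 4.19e-08) and *Tie1* at 2.23 (SE 0.21, adjusted p = 1.49e-06). *Eng*, *Cdh5*, *Pecam1* and *Kdr* differed by 1.62 to 1.86 on the log2 scale. The exceptions were *Thbd* and *Tek*. The *Thbd* difference was 0.08 with a 95% interval from -0.11 to 0.27 (adjusted p = 0.501), which was -0.03 without M/M replicate 1, and with scaling by library size only it was 0.41 (adjusted p = 0.000977). For *Tek* the difference was -0.10 with an interval from -0.29 to 0.09 (adjusted p = 0.39), and it turned to 0.24 (adjusted p = 0.0556) with scaling by library size only.

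The I/M libraries were uneven. Replicate 1 was the lowest of the 3 for 9 of the 10 genes, *Thbd* being the other, and its *Cdh5*, *Flt1* and *Kdr* levels were 1.69, 0.61 and 0.84 CPM against at least 3.33, 1.40 and 1.61 in both others. Leaving out any I/M library, replicate 3 included, left 9 genes called against wild-type. Wild-type replicate 3 was the highest of its group for 7 of the 10 genes.

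In KO lenses the intervals set how far a difference could be seen. *Tek* was at -0.28 (95% interval -0.51 to -0.05, adjusted p = 0.197) and was the 1 gene of 10 with an unadjusted p under 0.05, a mark passed by 7.77% of all genes upward and 8.16% downward, and DESeq2 also called 0 of 10. *Pecam1* was at 0.49 (interval -0.05 to 1.02) and *Thbd* at 0.46 (interval -0.08 to 1.01). Intervals of *Tie1* (-0.51 to 2.53), *Flt1* (-1.14 to 3.01) and *Kdr* (-1.44 to 1.98) were wide, with 20, 19 and 25 counts over the 3 KO libraries. A difference of 2-fold in them was not detectable at this depth. *Thbd* was higher and *Vwf* lower in all KO than in all wild-type libraries, and 10.3% and 10.5% of all genes showed such a lack of overlap in each direction. The log2 fold change of *Vwf* was -0.70 (interval -1.50 to 0.09, adjusted p = 0.391), and its adjusted p was 0.0118 when no filter on low counts was used. That edgeR fit gave adjusted p-values on another scale, for *Vwf* in M/M 1.27e-164 against 2.53e-08 with the filter on the mean count. The value of 0.0118 is therefore not comparable with the others.

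The filter of the study methods, a CPM of at least 5 in at least 3 libraries, kept 8984 genes and 9 of the 10 described here. *Kdr* reached that level in 2 libraries only. *Tek* did so in 8 libraries and *Thbd* in the 6 mutant libraries, while the other 7 passed only through the M/M libraries and so had to be higher there. With this filter 9 of 9 genes were called in M/M, against 6.42% of all genes called higher, 8 of 9 in I/M (2.58%), 0 of 9 in KO (0.234% higher, 0.334% lower) and 7 of 9 between the mutant genotypes (3.67%). These counts are descriptive for that reason.

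Levels of different genes were compared per kilobase of merged exons. In wild-type lenses *Tek* stood above the others with 1.22 ± 0.181 CPM per kb (SD, n = 3). *Thbd* at 0.151 ± 0.0399, *Pecam1* at 0.109 ± 0.0201 and *Cldn5* at 0.086 ± 0.0426 came next and did not differ from their neighbours beyond the SD. *Cdh5*, *Eng* and *Vwf* were at 0.056 to 0.0587 CPM per kb, and *Kdr*, *Tie1* and *Flt1* at 0.00457 to 0.014. The order in I/M was led by *Thbd* at 8.96 ± 0.493, followed by *Tek* at 2.66 ± 0.203 and *Cldn5* at 1.34 ± 0.321 CPM per kb, and *Vwf* was last at 0.0686 ± 0.0259. In M/M lenses *Thbd* (9.48 ± 1.42) and *Cldn5* (7.66 ± 0.521) led with overlapping spreads. *Eng* (2.68 ± 0.243), *Tek* (2.48 ± 0.163) and *Cdh5* (2.33 ± 0.458) formed a set within their spreads, *Tie1* (1.11 ± 0.137) and *Pecam1* (1.03 ± 0.126) another, and *Vwf* (0.737 ± 0.189), *Flt1* (0.688 ± 0.1) and *Kdr* (0.521 ± 0.12) were lowest. With the length of the longest transcript in place of merged exons, 6 of the 10 levels in M/M were higher by more than their SD, among them *Pecam1* at 1.87, *Flt1* at 1.35, *Vwf* at 1.34 and *Kdr* at 0.795 CPM per kb. In wild-type lenses *Pecam1* at 0.198 then came above *Thbd*, and *Vwf* at 0.102 above *Cldn5*.

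The makeup of the summed signal differed by genotype. *Tek* gave 65.7% ± 2.6 (SD, n = 3) of the summed counts of the 10 genes in wild-type, 57.7% ± 2.8 in KO, 20.6% ± 0.53 in I/M and 10.1% ± 0.53 in M/M libraries. *Thbd* gave 6.45% ± 1.5, 9.58% ± 0.94, 55.3% ± 6 and 30.5% ± 5.1 in the same order. *Vwf* gave 10.6% ± 2.8 in wild-type, 1.78% ± 0.54 in I/M and 10.2% ± 2.5 in M/M libraries.

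Ratios to *Cdh5* in the same library do not depend on scaling between libraries. Those of wild-type libraries rest on 13, 4 and 20 counts of *Cdh5*. The log2 ratio of *Kdr* to *Cdh5* was -0.89 ± 0.07 (SD, n = 3) in wild-type, -0.94 ± 0.16 in I/M and -1.06 ± 0.17 in M/M lenses. That of *Eng* was 0.02 ± 0.88, 0.06 ± 0.05 and 0.17 ± 0.24, and the libraries of these genotypes overlapped for both genes. The *Tek* ratio was 4.71 ± 0.87 in wild-type, 2.18 ± 0.51 in I/M and 0.27 ± 0.27 in M/M lenses, that is 26.2, 4.55 and 1.21 counts of *Tek* for each count of *Cdh5*. The *Thbd* ratio was 1.36 ± 0.77, 3.60 ± 0.63 and 1.86 ± 0.44, highest in I/M without overlap with wild-type. For *Vwf* it was 2.05 ± 1.23, -1.39 ± 0.18 and 0.26 ± 0.47, lowest in I/M. *Pecam1* was at 1.65 ± 1.00, -0.53 ± 0.26 and -0.60 ± 0.22. Of 9 ratios, 4 had no overlap with wild-type in M/M, 5 in I/M and 1 (*Tie1*) in KO, against 97.7%, 97.3% and 1.45% of the ratios of all other genes tested to *Cdh5*. Each of these 10 had a two-sided exact permutation p of 0.1, the smallest that 3 against 3 libraries can give, and 0.27 after Benjamini-Hochberg adjustment over 27 ratio tests. The pattern depends on the reference gene. With *Pecam1* in its place 8 ratios had no overlap in M/M, and the difference of *Kdr* in M/M from wild-type was 2.07 instead of -0.18.

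**Figure D3:**
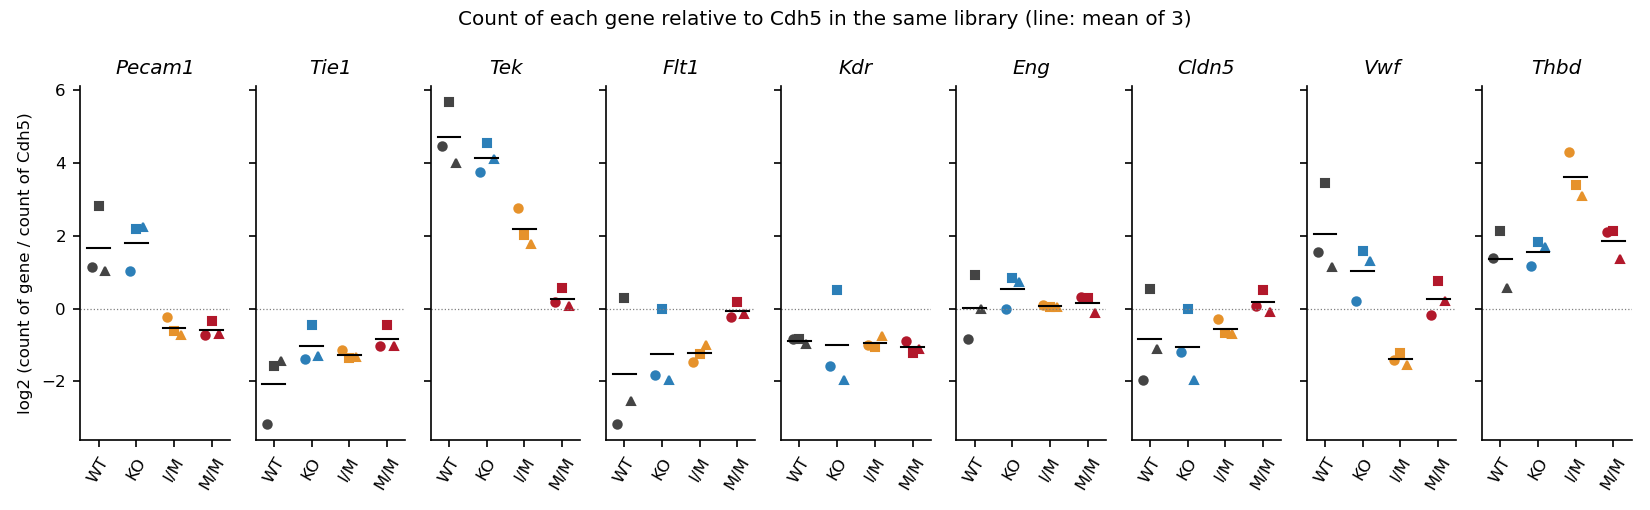
Log2 ratio of the count of each of 9 genes to the count of *Cdh5* in the same library, by genotype. Symbols are replicates 1, 2 and 3, lines are means of 3, and the dotted line marks equal counts. *Kdr* and *Eng* stay level across wild-type, I/M and M/M, *Tek* steps down, and *Thbd* is highest and *Vwf* lowest in I/M.

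Promoter sequence from RefSeq was at hand for *Tek*, *Tie1*, *Flt1*, *Kdr*, *Eng* and *Cldn5*, and covers the 250 bases before the RefSeq transcription start (GRCm38.p6). The gene with the lowest rise in M/M (*Tek*), the one with the highest (*Flt1*) and their family members (*Tie1*, *Kdr*) are shown 5′ to 3′ on the strand of the gene. Capitals mark the letters CAGGAA or CCGGAA, or their reverse complements, 2 forms of the motif of ETS factors, a family that includes regulators of endothelial genes.
Tek, chr4:94739039-94739288, plus strand: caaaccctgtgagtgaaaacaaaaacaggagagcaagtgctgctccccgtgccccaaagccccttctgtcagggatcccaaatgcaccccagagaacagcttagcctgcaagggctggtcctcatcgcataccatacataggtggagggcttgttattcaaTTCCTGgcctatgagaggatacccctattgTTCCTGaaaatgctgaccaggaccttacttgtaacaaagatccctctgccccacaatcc
Tie1, chr4:118489850-118490099, minus strand: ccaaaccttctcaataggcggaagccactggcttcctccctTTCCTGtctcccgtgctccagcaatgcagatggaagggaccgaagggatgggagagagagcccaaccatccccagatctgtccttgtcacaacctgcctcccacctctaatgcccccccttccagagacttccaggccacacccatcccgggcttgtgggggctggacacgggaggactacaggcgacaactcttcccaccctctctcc
Kdr, chr5:75978456-75978705, minus strand: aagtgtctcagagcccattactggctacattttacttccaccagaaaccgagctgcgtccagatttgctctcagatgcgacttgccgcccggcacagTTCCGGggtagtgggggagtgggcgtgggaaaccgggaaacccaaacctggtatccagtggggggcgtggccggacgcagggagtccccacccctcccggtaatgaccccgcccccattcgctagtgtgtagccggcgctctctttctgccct
Flt1, chr5:147726012-147726261, minus strand: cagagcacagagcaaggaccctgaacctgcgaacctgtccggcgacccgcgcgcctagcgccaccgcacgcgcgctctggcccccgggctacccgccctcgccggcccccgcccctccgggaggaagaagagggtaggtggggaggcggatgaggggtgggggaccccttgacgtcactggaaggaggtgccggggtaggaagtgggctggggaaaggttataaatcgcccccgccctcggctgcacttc

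One of these 2 ETS forms stood in 3 of the 6 promoters. Other forms of the motif were not searched, so an unmarked promoter may still hold them. *Tek* had 2 matches, starting 89 and 59 bases before the start, *Tie1* had 1 at 209 bases and *Kdr* 1 at 153 bases, all in reverse orientation. Either form occurs in 35% of the 32536 RefSeq promoter windows of this length. The KLF letters CACCC were in 6 of 6, against 52.1% of all windows, the GC box GGGCGG was in 3 of 6 (*Flt1*, *Kdr* and *Cldn5*), against 33%, and the GATA letters AGATAA were in 0 of 6, against 9.97%. A TATA box, TATAAA, was found in *Flt1* alone, 31 bases before the start, against 12.3% of windows. Both strands were searched for every motif, and a match is a run of letters, not a bound site.

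By the pattern of 3 log2 fold changes against wild-type, the genes nearest to *Cdh5* among 13234 genes with a mean CPM of at least 0.5 were *Kdr* (distance 0.21 log2 units), C130074G19Rik (0.24) and *Mmrn2* (0.25), which encodes multimerin-2, an extracellular matrix protein of endothelium. No gene was as close to *Thbd*. The nearest were *Folh1* (1.14), *Kcng1* (1.45) and AU021092 (1.46). *Folh1*, a membrane carboxypeptidase, was at 5.04 in M/M, 5.22 in I/M and 0.29 in KO. *Kcng1*, a modulatory potassium channel subunit, was at 5.66, 6.39 and 1.79 in the same order, while *Thbd* was at 0.46 in KO. These distances are descriptions, and the 3 fold changes share the wild-type libraries.

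Other endothelial markers were read from a list of 22 genes, of which 21 were tested. Many were near 0 in wild-type, such as *Emcn* at 0.0136, *Sox18* at 0.0199 and *Esam* at 0.0273 CPM. Such genes passed the filter on the mean count through the mutant libraries. *Mfsd2a* and *Egfl7*, given below, were the most abundant of those tested in wild-type. The counts called are descriptive for that reason. In M/M lenses 19 were called higher and 1 lower, against 11.3% and 4.45% of all genes tested. Their median change was 4.92 on the log2 scale, against -0.01 over all genes. In I/M lenses 18 were higher and 0 lower (4.39% and 1.9% of all genes), with a median of 3.17. In KO lenses 0 were called (0.375% of all genes higher and 0.573% lower). *S1pr1*, a receptor for sphingosine-1-phosphate, rose by 3.58 (SE 0.19, adjusted p = 1.14e-09) in M/M and by 1.35 (SE 0.20, adjusted p = 0.000197) in I/M on the log2 scale. *Cd93*, an endothelial C-type lectin-like receptor, rose by 4.29 (SE 0.47, adjusted p = 9.83e-06) in I/M. *Mfsd2a*, the lysophosphatidylcholine transporter of the blood-brain barrier, was at 14.3 CPM in wild-type and 5.09 in M/M lenses, and fell by 1.49 (SE 0.11, adjusted p = 4.54e-08). The 1 gene of the list not called in M/M, *Egfl7*, named here after its value was seen, was at 7.82 CPM in wild-type and 8.02 in M/M.

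Ligands and co-receptors of the VEGF and angiopoietin receptors had 5 of 10 tested genes called higher in M/M (median 1.07), 4 in I/M (median 0.44) and 0 in KO, and 0 lower in all 3. Of all genes tested, 11.3% were called higher and 4.45% lower in M/M, and 4.39% higher and 1.9% lower in I/M, shares that apply to every list here. *Nrp2*, a neuropilin that binds VEGF-C and semaphorins, rose by 5.37 (SE 0.21, adjusted p = 7.89e-11) and *Angpt2*, an angiopoietin released by activated endothelium, by 1.38 (SE 0.20, adjusted p = 3.84e-05) in M/M. In I/M, *Nrp1* rose by 1.09 (SE 0.21, adjusted p = 0.00162) and *Angpt1*, the agonist of Tie2 made largely by perivascular cells, by 2.32 (SE 0.27, adjusted p = 1.62e-05). *Vegfa* was at 27.7 CPM in wild-type and 31.8 in KO lenses (log2 fold change 0.20, SE 0.09, adjusted p = 0.262). In M/M lenses, given after its value was seen, *Vegfa* was at 39.6 CPM, a log2 fold change of 0.52 (SE 0.08, adjusted p = 0.000109) that stayed under the 2-fold threshold. Coagulation partners of thrombomodulin had 6 of 9 tested genes higher in M/M (median 2.49), and 3 higher and 1 lower in I/M (median 0.19). *Plat*, tissue plasminogen activator, rose by 2.49 (SE 0.20, adjusted p = 9.9e-08) and *Serpine2*, a thrombin inhibitor, by 6.09 (SE 0.24, adjusted p = 7.31e-11) in M/M. *F2r*, the thrombin receptor PAR1, fell by 1.41 (SE 0.13, adjusted p = 1.51e-06) in I/M. *Plat* was also the 1 gene of this list called in KO, where it fell by 1.04 (SE 0.25, adjusted p = 0.0378). In the endoglin receptor list 3 of 12 tested genes were higher in M/M (median 0.39), 2 in I/M (median 0.17) and 0 in KO. Of all genes, 11.3% were called higher in M/M and 4.39% in I/M. The counts in this list are small, and their excess was not tested. *Tgfbr2*, the type II TGF-beta receptor, rose by 5.58 (SE 0.28, adjusted p = 8.7e-10) in M/M and by 2.87 (SE 0.35, adjusted p = 2.84e-05) in I/M, *Tgfbr3*, betaglycan, by 1.75 (SE 0.13, adjusted p = 4.54e-08) in M/M, and *Acvrl1*, the receptor ALK1, by 1.20 (SE 0.26, adjusted p = 0.0034) in I/M.

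Markers of other cell types also rose, mainly in M/M and less often in I/M lenses, and their part in the results was not tested. Of the pericyte and smooth muscle list, 6 of 10 tested genes were higher and 1 lower in M/M, 3 were higher in I/M and 0 were called in KO, where 11.3%, 4.45%, 4.39% and 0.948% of all genes were so called. Its sum, most of it *Acta2*, was 98.9 to 110 CPM in wild-type, 118 to 142 in I/M and 245 to 334 in M/M libraries. *Acta2* was at 68.6, 90.9 and 209 CPM in the same order. Named here after their values were seen, *Notch3* was the gene called lower, at 21.5 CPM in wild-type and 10.1 in M/M, and *Pdgfrb*, *Myh11* and *Abcc9* were not called in M/M. *Rgs5*, a pericyte regulator of G-protein signaling, was at 0.51 CPM in wild-type, 6.01 in I/M and 30.8 in M/M lenses. Macrophage markers were higher for 9 of 9 tested genes in M/M, 1 in I/M and 0 in KO. They summed to 0.459 to 0.632 CPM in wild-type, 1.1 to 1.28 in I/M and 11.2 to 22 in M/M libraries, with *Csf1r*, the receptor for macrophage colony-stimulating factor, at 0.189, 0.385 and 3.34. Fibroblast markers were higher for 4 of 5 tested genes in M/M and lower for *Pdgfra*, and their sum, in wild-type most of it *Pdgfra*, was 78.9 to 87.2 CPM there and 85.8 to 135 in M/M libraries. *Col1a1*, a fibrillar collagen chain, was at 0.128, 0.339 and 53.6 CPM in wild-type, I/M and M/M. In I/M lenses 2 of these 5 genes were higher, and in KO 0 were called.

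Markers of blood, neighbouring tissues and the lens itself were summed in the same way. Of the platelet markers, 2 of 6 were tested and 1, *Itga2b*, was higher in M/M (log2 fold change 1.11, SE 0.24, adjusted p = 0.00111), with sums of 1.45 to 1.89 CPM in wild-type, 1.43 to 1.7 in I/M and 2.18 to 2.51 in M/M libraries. Red blood cell markers were called in 0 of 4 tested genes in each comparison with wild-type, and ranged from 1.22 to 12.1 CPM within wild-type libraries and from 12.3 to 14.8 in M/M. Neural retina markers had 4 of 5 tested genes higher and *Elavl4* lower in M/M (11.3% and 4.45% of all genes), with sums of 2.98 to 3.33 CPM in wild-type and 2.58 to 6.18 in M/M libraries. Pigmented cell markers had 1 of 3 tested genes higher in each mutant genotype, *Dct* in M/M and *Tyrp1* in I/M, and summed to 5.37 to 6.25 CPM in I/M against 3.14 to 3.73 in wild-type libraries. Lens epithelium markers summed to 761 to 798 CPM in wild-type, 653 to 678 in I/M and 470 to 488 in M/M libraries, where *Foxe3* and *Slc38a3* were called lower, and *Gja1* was lower in I/M. Of the 9 lens fiber markers, *Bfsp1* was called lower in M/M and 0 were called in the other comparisons with wild-type.

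**Figure D4:**
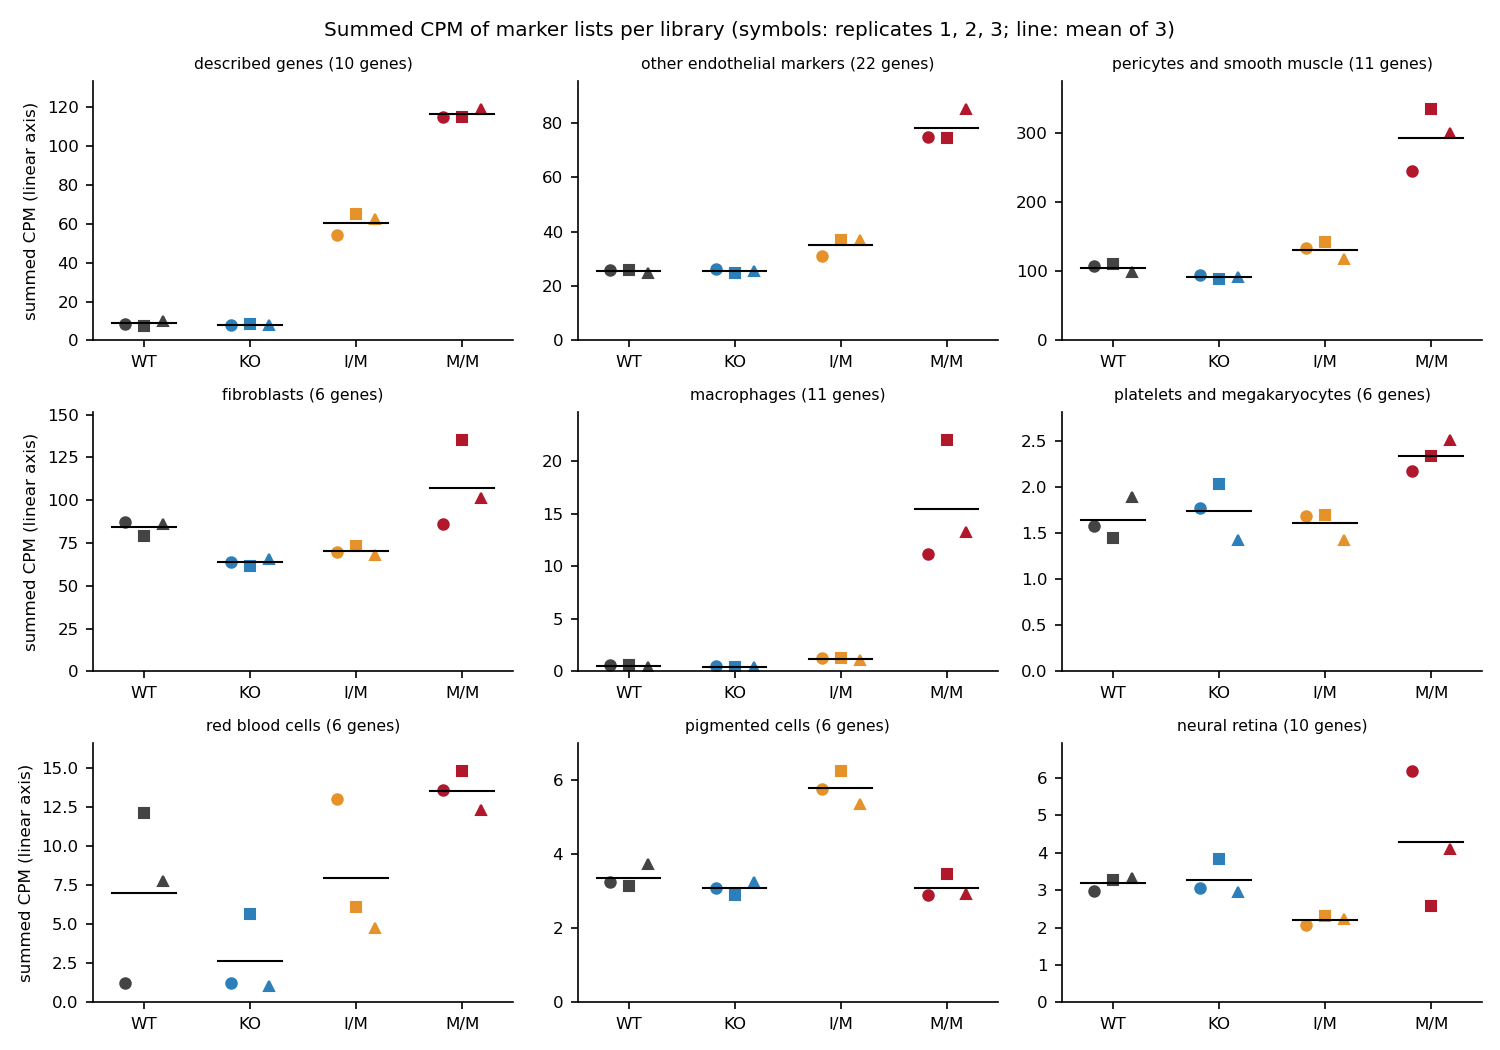
Summed CPM (linear axis) of the 10 described genes and of 8 marker lists in the 12 libraries, by genotype. Symbols are replicates 1, 2 and 3 and lines are means of 3. The 10 genes and the other endothelial markers are raised in I/M and more so in M/M, while the macrophage markers are at 11.2 to 22 CPM in M/M and at 1.28 or below in every other library.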

How the data were processed

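Lens RNA from 12 libraries of 4 genotypes was sequenced after poly-A selection. The authors aligned and quantified reads with DRAGEN on the mm10 build and deposited one table of expected counts per gene, raw and separate for each library, 88.4% of them whole numbers. A second table deposited by the authors holds part of the same counts with their comparisons (fold changes and p-values), which were not used. Genotypes came from the sample titles. In the table, 2 columns carry an extra letter c after the replicate number.

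Counts were rounded to whole numbers. TMM factors (0.826 to 1.29) and one quasi-likelihood fit over all 12 libraries with genotype as the factor were made in edgeR 4.0.16 (R 4.3.3), with Benjamini-Hochberg adjustment over all genes tested. Genes with a mean count of at least 10 were tested, and those with a CPM of at least 5 in at least 3 libraries in a second fit. Standard errors were taken from each fold change and its F statistic. Alternatives were DESeq2 1.42.0, other scalings, filters and sample sets, a replicate block and each library left out. Ratios used counts with 0.5 added and exact permutation tests (scipy 1.17.1). Gene positions and exon lengths are from GENCODE on GRCm38, and promoters from RefSeq. The edgeR fit was tested on simulated counts with changes of 2- to 4-fold in M/M libraries. There 73.1% of 2-fold and 93.9% of 4-fold changes passed the adjusted p against wild-type, and 6.59% of genes passing were unchanged. The other procedures were not simulated.

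The 10 genes and all marker lists were chosen with earlier results of these data known. From each list up to 2 called genes per comparison with the highest CPM were named, or the most abundant gene where none was called, and for *Cdh5* and *Thbd* the 3 genes nearest in fold change. Some genes that this rule names are not reported here. A count of 0 in a library allows up to 3 counts, for counting error only.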

Additional observations from a re-analysis of the deposited data

How the results depend on the processing

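With the filter on the mean count, the numbers of called genes (10 in M/M, 9 in I/M, 0 in KO, 8 between the mutant genotypes) were the same under all 8 alternatives of scaling, test, threshold, sample set, filter and block, and leaving out a library gave 9 to 10, 9, 0 and 8. With the CPM filter the counts were 2 to 9 in M/M, 2 to 8 in I/M and 0 to 7 between mutant genotypes when a library was left out. The lowest counts came without M/M replicate 1, 2 or 3, when 7 genes no longer passed the filter. With only the libraries compared, 2 genes were called in I/M, and no gene of the 10 passed that filter for KO, so no count was made. Scaling by library size only moved the median log2 fold change of all genes to 0.52 in M/M, 0.192 in I/M, 0.0504 in KO and 0.334 between mutant genotypes, and turned *Tek* to 0.24 in the last.

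With the replicate number as a block the counts stayed at 10, 9, 0 and 8. The libraries share only a number. Deviations of the 18 same-numbered pairs correlated at -0.26 to 0.18, 2 of them over 0.1, and 1 of 12 libraries correlated best with its own number. No setting with the block changed a call.

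Uncalled values changed sign when a library was left out. In KO, *Cdh5* ranged from -0.29 (without wild-type replicate 2) to 0.62 and was at -0.17 without KO replicate 1, *Cldn5* from -0.22 (KO 2) to 0.56, with -0.17 (wild-type 1), and *Kdr* from -0.58 (KO 2) to 0.74, with -0.12 (wild-type 2). Between mutant genotypes *Thbd* ranged from -0.03 (M/M 1) to 0.18.

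Ratios to *Cdh5* without overlap in M/M numbered 4, and 4 to 6 when a library was left out. With *Pecam1* as the reference there were 8, and the difference from wild-type turned to 2.07 and 2.13 for *Kdr* (M/M, I/M) and 0.45 for *Vwf* (M/M). With 0.1 added to counts *Kdr* in I/M was at 0.01. Leaving out a library, ratio differences that changed sign ranged in M/M from -0.29 to 0.59 (*Eng*), in I/M from -0.40 to 0.48 (*Eng*), -0.10 to 1.63 (*Flt1*), -0.27 to 0.97 (*Cldn5*) and -0.14 to 0.01 (*Kdr*), and in KO from -0.13 to 1.60 (*Flt1*, also -0.08), -0.76 to 0.48 (*Cldn5*, also 0.24), -0.88 to 0.36 (*Kdr*, also 0.17), -0.15 to 0.74 (*Pecam1*, also -0.10, -0.02 and -0.05) and -0.20 to 0.57 (*Thbd*). The causes of these changes were not tested.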
